A study of Mus musculus with 460 samples.

Results

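The cells described here were decorin-low fibroblasts with low actin. They carried at least as many counts of Pdgfra, the gene of platelet-derived growth factor receptor alpha, as of the pericyte gene Rgs5. They also held under 1000 CPM (counts per 1000000 counts of the cell) of Acta2, which encodes smooth muscle actin, and under 500 CPM of Dcn, which encodes the matrix proteoglycan decorin. Members were thus selected on their measured Pdgfra, Rgs5, Acta2 and Dcn counts. This rule took 88 of the 460 cells, or 19.1% (exact Clopper-Pearson 95% interval 15.6 to 23). All 460 cells were labelled as cancer-associated fibroblasts (CAFs; tCAFs in the source label) of lung adenocarcinoma from KrasLA1 mice. The labels gave 1 group with no treatment, time, age or control. They named no animal, culture, sort or library, so the cells counted as 1 sample and no test between populations was possible. Every interval covers counting error only, cells are not replicates, and no p-value is given.

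Pdgfra marks mesenchymal cells that receive platelet-derived growth factor, and in the lung it is carried by alveolar, adventitial and airway-associated fibroblasts, whereas Rgs5 is typical of the pericytes that wrap small vessels. CAFs are known for making collagen and elastic matrix, for secreting growth factors to tumour cells and, in their contractile form, for smooth muscle actin. Decorin is a small proteoglycan that binds collagen fibrils.

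Members were set against 3 other populations of the same table. The first held 90 decorin-high low-actin cells (at least 500 CPM of Dcn), and the second 79 high-actin cells (at least 1000 CPM of Acta2), which together are called the other Pdgfra cells. The third held the cells with more Rgs5 than Pdgfra, called Rgs5 cells, which made up 44.1% of the 460. The selecting genes describe the rule and are no finding. The highest Acta2 levels inside the rule were 945, 926 and 912 CPM, and the lowest outside were 1013, 1021 and 1064. For Dcn they were 476, 453.6 and 451.6 CPM inside against 524, 527 and 616 outside. The lowest ratio of Pdgfra to Rgs5 counts in a member was 1.01, the highest outside 0.976, and 16 members lay under a ratio of 2. Within 20% of the Acta2 limit lay 9 cells below and 7 above, and within 20% of the Dcn limit 6 and 2.

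**Figure D1:**
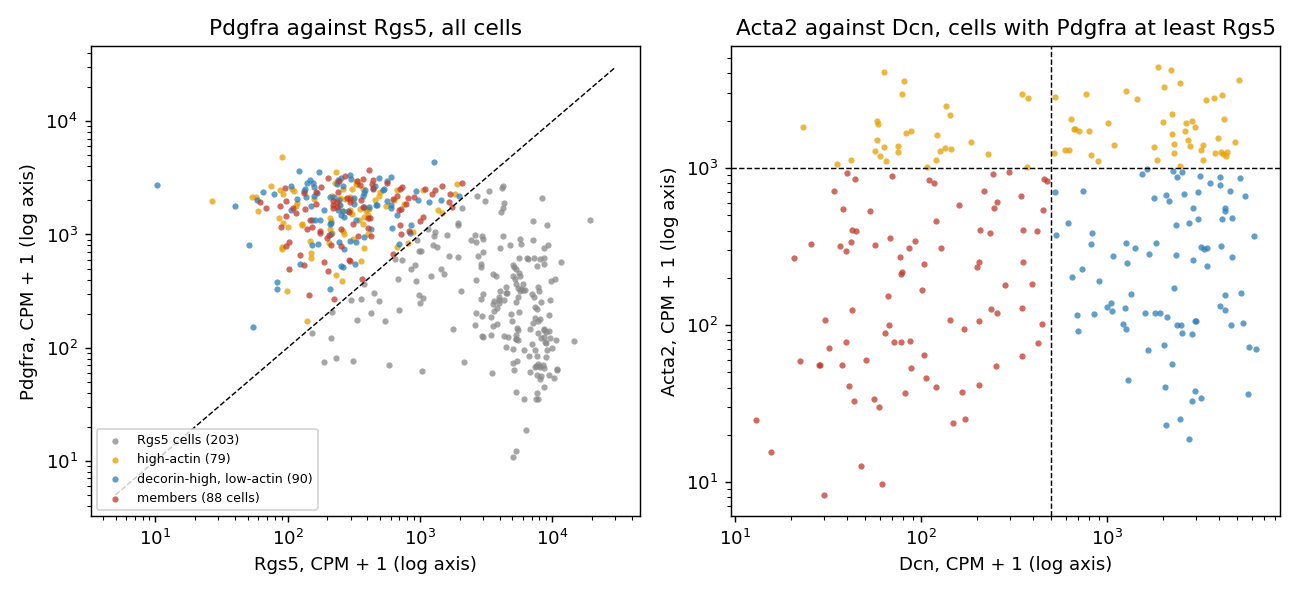
Each point is 1 cell; both axes are CPM + 1 on log scales. Left, Pdgfra against Rgs5 in the 460 cells, with the line of equal values; right, Acta2 against Dcn in cells with at least as much Pdgfra as Rgs5, with the limits of 1000 and 500 CPM as dashed lines. The 88 members (red) fill the lower left corner on the right, and the levels run on to both limits without a gap.

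Members were deeply counted, with a median of 101755 counts and 8171 genes per cell, against 94215 counts in the other Pdgfra cells and 76944 in the Rgs5 cells. The labelled fibroblast identity was compared with Col1a1, which encodes a chain of type I collagen. It was counted in every member, from 259.4 to 5981 CPM with a median of 2014. Rgs5 cells also held it, at 1740 CPM pooled against 2177 in members, and the list of 10 measured general fibroblast genes had a median log2 fold of -0.019 against them, so these genes did not set members apart from the Rgs5 cells. Of 12 cells with at least 100 CPM of Hand2 and Hoxa10 together, transcription factor genes of posterior body mesenchyme, 9 were members, 1 was another Pdgfra cell and 2 were Rgs5 cells. They stood apart from the rest, and counts without them are given where they change the number of genes called in a list described here. The deposited columns also fell into runs rich or poor in Sftpc, a surfactant gene of alveolar epithelium. Of the members, 27 (30.7%) lay in runs poor in Sftpc, as did 21.3% of the other Pdgfra cells and 31.5% of the Rgs5 cells. The labels do not say what the runs are, so they are not called batches.

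The markers named with this population were Moxd1, a gene of the copper monooxygenase family, and Plagl1, an imprinted zinc finger transcription factor gene. In the 88 members Moxd1 ranged from 0 to 1866 CPM with a median of 18.6, and Plagl1 from 0 to 2084 with a median of 58.6. Many members were low and a minority very high. Pooled over members, Moxd1 reached 157.96 CPM (exact Poisson 95% interval 150 to 166.4), against 68 in the other Pdgfra cells and 23.9 in the Rgs5 cells. Plagl1 reached 317.4 CPM (305.8 to 329.2), against 164.96 and 62.7. The promoters of both genes are shown because they mark the population's named genes, together with that of Chst2, a sulfotransferase gene whose level followed Plagl1 across members. Each runs from 250 bases before to 50 bases after the start (RefSeq, GRCm38.p6), 5′ to 3′ on the gene's strand. Capitals mark the GC box GGGCGG or its reverse complement CCGCCC. The Moxd1 window lies at chr10:24223267-24223566 (+), the Plagl1 window at chr10:13090582-13090881 (+) and the Chst2 window at chr9:95407221-95407520 (-).
Moxd1: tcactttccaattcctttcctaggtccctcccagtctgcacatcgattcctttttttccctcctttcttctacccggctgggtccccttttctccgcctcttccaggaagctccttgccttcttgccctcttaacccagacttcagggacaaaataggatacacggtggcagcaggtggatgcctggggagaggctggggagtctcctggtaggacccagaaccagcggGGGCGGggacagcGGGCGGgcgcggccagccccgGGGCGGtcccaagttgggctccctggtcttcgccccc
Plagl1: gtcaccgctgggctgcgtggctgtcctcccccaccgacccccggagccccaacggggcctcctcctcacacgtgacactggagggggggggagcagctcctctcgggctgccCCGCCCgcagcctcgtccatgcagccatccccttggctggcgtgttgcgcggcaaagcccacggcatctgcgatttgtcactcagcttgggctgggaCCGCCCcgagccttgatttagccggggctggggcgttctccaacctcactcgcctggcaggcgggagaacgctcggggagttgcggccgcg
Chst2: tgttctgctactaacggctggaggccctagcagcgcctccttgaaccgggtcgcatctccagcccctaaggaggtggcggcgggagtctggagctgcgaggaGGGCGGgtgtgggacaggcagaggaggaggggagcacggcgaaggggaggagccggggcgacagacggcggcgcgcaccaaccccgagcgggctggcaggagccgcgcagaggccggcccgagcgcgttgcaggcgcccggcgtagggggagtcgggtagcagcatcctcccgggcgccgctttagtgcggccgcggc
The windows held 3, 2 and 1 matches, and 35.7% of 32851 mouse promoters of this length held at least 1. They held 13, 26 and 34 CpG dinucleotides, where the median promoter had 7. Of the promoters 62.1%, 83.1% and 92.3% held fewer than these windows.

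Neither marker was present throughout the members. After each cell was thinned to 56586 counts, which left out 4 members, Moxd1 had a count in 63.1% of members (51.9 to 73.4; 69.3% unthinned), in 47.8% of other Pdgfra cells and in 19.9% of Rgs5 cells. Plagl1 had one in 71.4% of members (60.5 to 80.8; 80.7% unthinned), 61.6% and 57.9%. Both were counted in 44 of 84 thinned members (52.4%), against 33.3% and 12.9%. At 100 CPM or more, 20 members held both, 6 held Moxd1 alone, 18 held Plagl1 alone and 44 held neither, among them all 9 posterior members. Across the 88 members the Spearman correlation of the 2 genes was 0.458 (0.425 in the 79 without posterior cells). Among 5627 genes, Moxd1 followed Nrep (0.666), Htra1 (0.549), Cotl1 (0.526), Tcf7 (0.486) and Adgra3 (0.471) most closely. Plagl1 followed the secreted protease gene Htra1 (0.615), Ets2 (0.574), Chst2 (0.552), Fam129a (0.552) and Tgfb2 (0.548). Cells share depth and gene detection, so these correlations are a description of 1 sample.

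In Pdgfra cells with low decorin and high actin, Moxd1 was close to its level in members and Plagl1 was above it, although in the column runs poor in Sftpc, with 5 such cells, Plagl1 was below it (276.4 against 517 CPM). Splitting the high-actin cells by Dcn, a step added after the data were seen, gave 30 decorin-low and 49 decorin-high cells. Moxd1 was 148.7 CPM (136.2 to 162.1) in the decorin-low high-actin cells, against 157.96 in members, and 46.4 and 47.1 in the decorin-high cells with low and high actin. Plagl1 was 408.9 CPM (387.9 to 430.7) in the decorin-low high-actin cells and 100.3 and 100.8 in the decorin-high ones. The same order was seen for Stc1, the gene of the secreted hormone stanniocalcin 1, at 152.2 CPM in members, 147.3 in decorin-low high-actin cells and 22.4 and 22.5 in the decorin-high cells. Peg10, an imprinted gene derived from a retrotransposon, stood at 140 and 151.9 CPM in the decorin-low cells and at 27.2 and 25.8 in the decorin-high cells. The order of the 2 decorin-low classes differed between column runs. In the Sftpc runs Stc1 was 96.1 CPM in members and 155.025 in decorin-low high-actin cells, and Peg10 118.6 and 161.6. In the runs poor in Sftpc Stc1 was 292.8 and 93.7, and Peg10 192.2 and 84.5. Stc1 was 59.7 CPM in decorin-high high-actin cells of the latter runs. Myl9, which encodes a myosin light chain, and Tagln, which encodes transgelin, were higher in the high-actin classes. The classes were split on Acta2, to which contractile genes are linked, so that direction is part of the choice. Myl9 was 34.5 CPM in members, 164.5 in decorin-low high-actin cells and 305.9 in decorin-high high-actin cells. Tagln was 115.4, 483 and 709. Myl9 was also lower in decorin-low than in decorin-high cells. Among low-actin cells its log2 folds were -1.41 in the Sftpc runs and -1.27 in the runs poor in Sftpc. Among high-actin cells they were -0.89 and -0.75. Those of Tagln were -0.63 and -0.35 among low-actin cells, and -0.61 and -0.28 among high-actin cells.

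Over all 9827 measured genes (at least 10 CPM over the 460 cells), a gene counted as higher or lower where pooled CPM + 1 differed at least 2-fold. Against decorin-high low-actin cells 2.21% of these genes were higher in members and 3.11% lower, and against high-actin cells 2.25% and 1.55%. Decorin-low against decorin-high cells within the high-actin cells, which share no cell with members or decorin-high low-actin cells, gave 4.10% higher and 3.66% lower. The genes higher in both of these decorin comparisons were 37.3% of the list from low-actin cells and 20.1% of the list from high-actin cells, and the genes lower in both were 37.6% and 31.9%. Both comparisons were split on Dcn. Against the decorin-low high-actin cells 3.56% of genes were higher in members and 1.52% lower.

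The marker contrast with other Pdgfra cells was larger in the column runs poor in Sftpc. Against other Pdgfra cells the log2 fold of Moxd1 was 1.204 over all columns, 0.64 in the Sftpc runs and 1.77 in the runs poor in it, and that of Plagl1 was 0.94, 0.40 and 2.43. Against decorin-high low-actin cells only, Moxd1 gave 1.08 in the Sftpc runs and 2.72 in the runs poor in Sftpc, and Plagl1 1.09 and 3.59. Within high-actin cells, decorin-low against decorin-high cells gave 1.19 and 3.42 for Moxd1 and 2.01 and 1.69 for Plagl1. The runs poor in Sftpc held 5 decorin-low high-actin cells. What the runs contribute to these values was not tested.

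**Figure D2:**
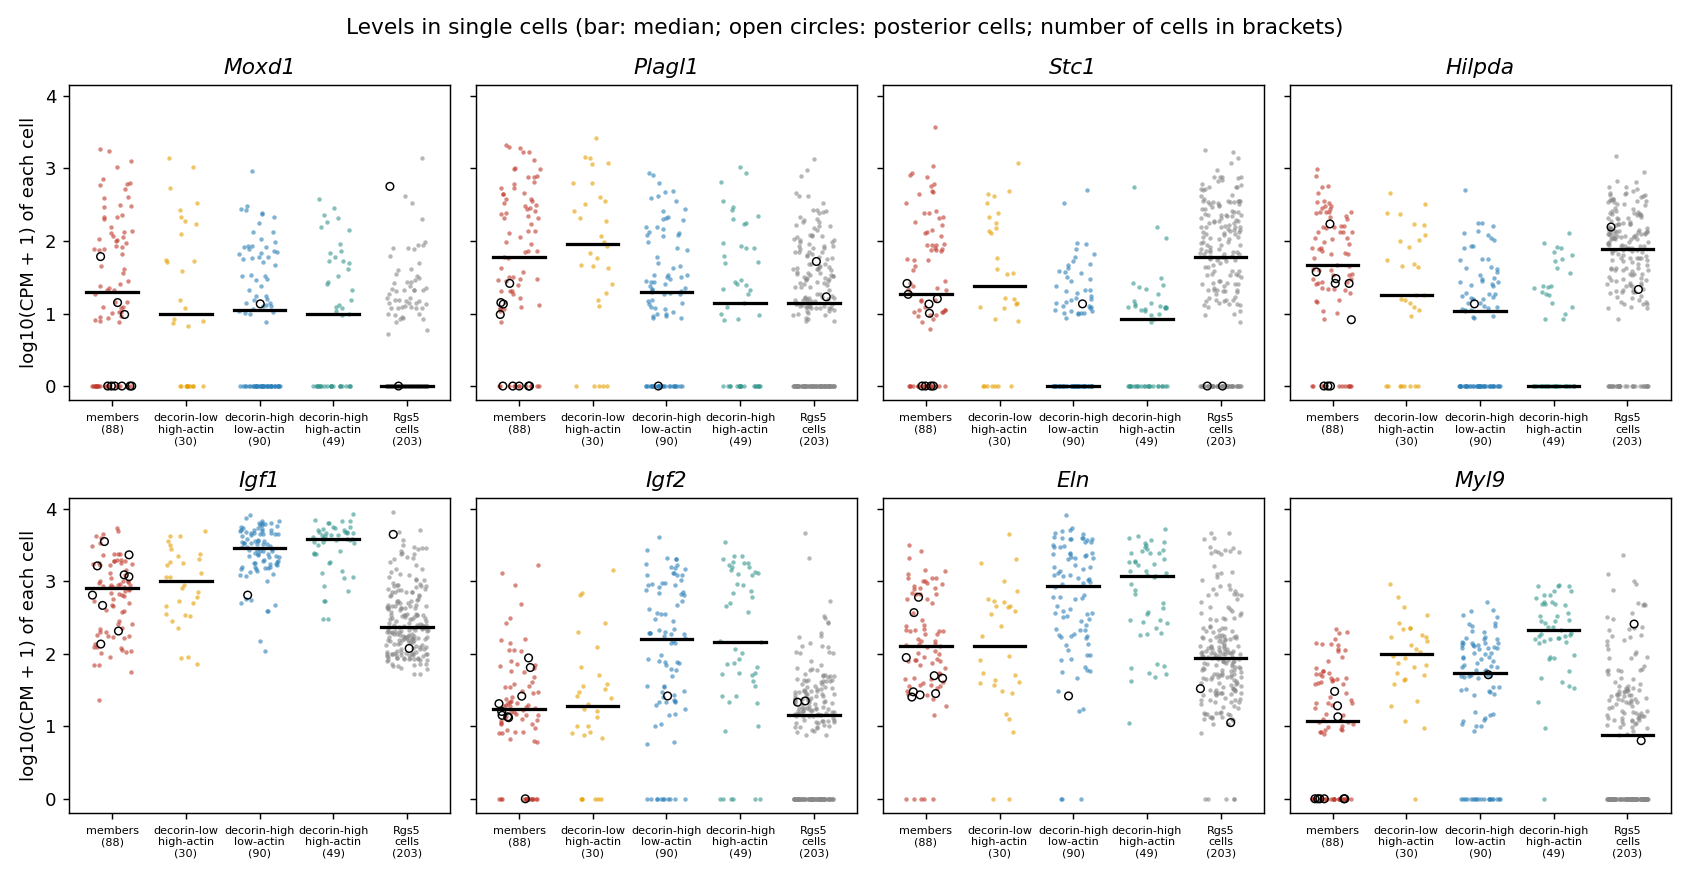
Level of 8 genes in each cell, as log10(CPM + 1), in the members, the other 3 classes of Pdgfra cells by Dcn and Acta2, and the Rgs5 cells; bars are medians and open circles posterior cells. Moxd1, Plagl1, Stc1 and Hilpda reach high levels in both decorin-low classes. Igf1 and Eln are high in both decorin-high classes, where Igf2 reaches high levels in a minority of cells. Myl9 has its highest medians in the high-actin classes.

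Against all other Pdgfra cells, 1.36% of the 9827 genes were at least 2-fold higher in members and 2.04% lower. Against Rgs5 cells 3.58% were higher and 4.06% lower. The median log2 fold of all genes was 0.07 and 0.03. Members lay between the other Pdgfra cells and the Rgs5 cells for most genes picked because they separate that pair. Of genes at least 2-fold higher in the other Pdgfra cells than in Rgs5 cells, with a median at least 1.5-fold higher (3.17% of all measured), 79.5% had a member level between the pair, with a median position of 0.665 on a scale from 0 (Rgs5 cells) to 1 (other Pdgfra cells). Of genes higher in Rgs5 cells by the same limits (2.15%) the median position was 0.204 on the scale from other Pdgfra cells to Rgs5 cells. This scale was chosen after the data were seen. Its genes were picked in these same data for a difference between the pair. A further group tends to fall between the pair on such genes, so these values are a description only.

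**Figure D3:**
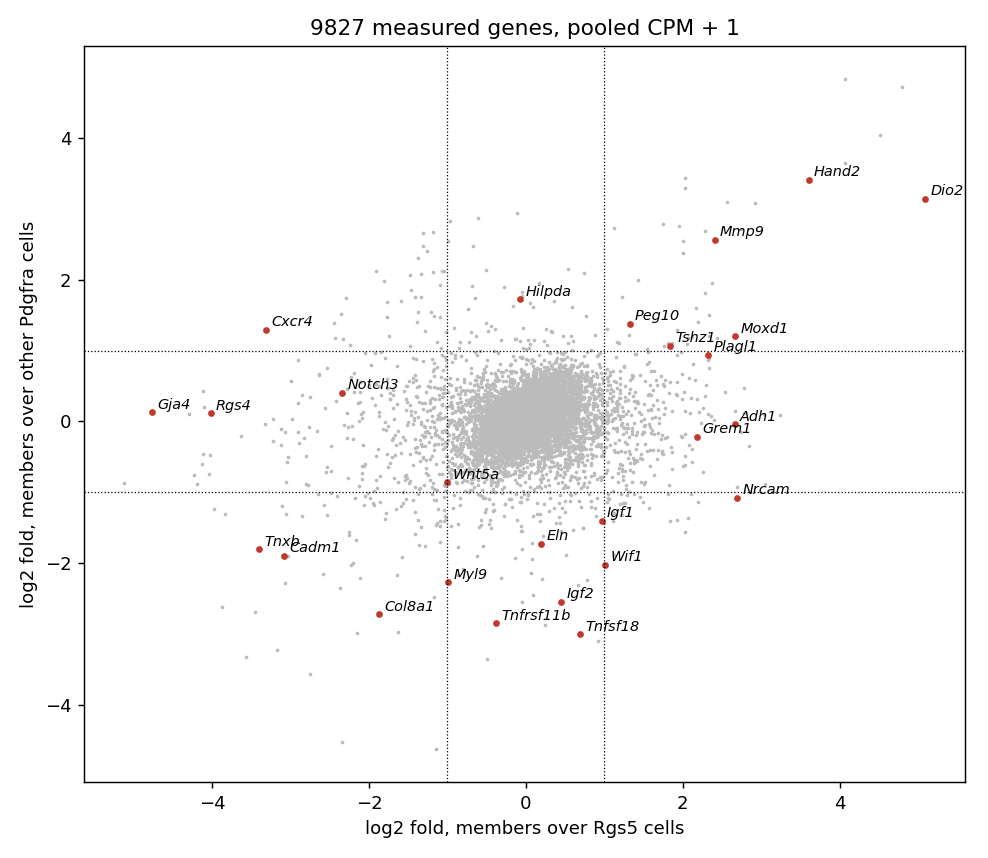
Each point is 1 of 9827 measured genes: the horizontal axis is the log2 fold of pooled CPM + 1 in members over Rgs5 cells, the vertical axis that over other Pdgfra cells, and dotted lines mark 2-fold. Moxd1 and Peg10 lie past 2-fold on both axes, Igf2, Eln and Tnfsf18 are lower only against the other Pdgfra cells, and Gja4 and Rgs4 only against the Rgs5 cells. Hand2, which helped to choose the posterior cells, and Dio2 rest on those cells.

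Among genes higher in members than in the other Pdgfra cells were several that are known to respond to low oxygen or nutrient stress. Hilpda, a lipid droplet protein gene, ranged from 0 to 997 CPM in members with a median of 45, against a median of 10.01 in other Pdgfra cells, and 69 of the 88 members lay above that median. Its pooled level was 129.4 CPM (122.1 to 137.04) against 38.5, a 3.30-fold difference. At 100 CPM or more it was held by 33 members (37.5%), 18 other Pdgfra cells (10.7%) and 87 Rgs5 cells (42.9%). Stc1 was 3.09-fold higher (log2 fold 0.95 in the Sftpc runs alone, short of 2-fold) and the glucose transporter gene Slc2a3 3.08-fold higher. All of these were near the levels of Rgs5 cells, with log2 folds of -0.08, -0.17 and 0.09, so they did not set members apart from the Rgs5 cells. Within the Pdgfra cells, Stc1 and Hilpda were also high in decorin-low high-actin cells. Hilpda was 83.8 CPM there in the Sftpc runs and 89.1 in the runs poor in Sftpc, against 121.6 and 148.9 in members. In the decorin-high cells it was 30.9 and 29.9 CPM with low actin and 19.6 and 16.3 with high actin. The list of glycolysis and hypoxia genes held 13 measured genes, of which none passed 2-fold in either direction, and their median log2 fold was 0.04. Other genes higher in members than in other Pdgfra cells were Utp14b (39 against 12.1 CPM), Shroom2, an actin-binding protein gene (78.7 against 30.9), and the chemokine receptor gene Cxcr4 (26.3 against 10.1). Only 5 members and 1 other Pdgfra cell held 100 CPM or more of Cxcr4, and it was 270 CPM in Rgs5 cells.

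At least 1.5-fold above each of the 3 other populations were 75 genes (0.763%), and 99 (1.01%) were at least 1.5-fold below each. Tshz1, a zinc finger transcription factor gene, ranged from 0 to 1896 CPM with a median of 258.1 and stood at 361.05 CPM in members, 167.1 in decorin-high, 175.4 in high-actin and 100.7 in Rgs5 cells. Of the members 66 lay above the median of other Pdgfra cells and 76 above that of Rgs5 cells. Cd34, a surface sialomucin gene of stromal and vascular progenitor cells, was 515 CPM against 288.6, 299.1 and 116.8. Plk2, a polo-like kinase gene, was 368.2 CPM against 203.1, 198.4 and 72.8. Taf4b, a subunit gene of the general transcription factor TFIID, was 51.6 CPM against 16.6, 16 and 10.7. Below each population stood Wnt5a, a noncanonical Wnt ligand gene, at 254.9 CPM against 451.3, 475 and 512, with 69 of the 88 members under the median of other Pdgfra cells. Col8a1 (23 CPM against 124.04, 191.1 and 86.7), the adhesion gene Cadm1 (17.9 against 108.3, 31.2 and 158.8) and the actin-regulating gene Mical2 (127.9 against 273.04, 265.2 and 263.8) were also below each.

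Of 15 measured genes of secreted growth factors, 5 were lower in members than in other Pdgfra cells. None was higher, 4 were lower without posterior cells, and the median log2 fold of the 15 was -0.39. Igf1, which encodes insulin-like growth factor 1, ranged from 21.9 to 5343 CPM with a median of 802, against a median of 2797 in the other Pdgfra cells, and 80 of 88 members lay under that median. Its pooled level was 1108 CPM (1087 to 1130) against 2932, 2.64-fold lower, though still 1.95-fold above Rgs5 cells. Igf2, the imprinted fetal growth factor gene, was 5.86-fold lower, at 81.9 CPM (76.1 to 88.1) against 485. At least 500 CPM of Igf2 were held by 3 members (3.41%), 51 other Pdgfra cells (30.2%) and 3 Rgs5 cells (1.48%). In decorin-low high-actin cells of the Sftpc runs Igf1 was 1542 CPM and Igf2 148.8, against 1039 and 65.3 in members. Decorin-high cells with low and high actin held 3158 and 3448 CPM of Igf1 there, and 525 and 588 of Igf2. In the runs poor in Sftpc, with 5 decorin-low high-actin cells, Igf1 was 1391 CPM and Igf2 9.14, against 1282 and 123.6 in members. Fgf18 (11 against 65 CPM) and Fgf10 (11.6 against 24.4), both fibroblast growth factor genes of lung mesenchyme, and the epidermal growth factor family gene Ereg (75.1 against 189.03) made up the 5. Fgf10 passed 2-fold in 8 of 18 alternative settings, with log2 folds from -1.52 to -0.58. Of 8 IGF binding protein and receptor genes 3 were lower (Igfbp5, 442.1 against 909 CPM; Igfbp2, 9.89 against 29.8; Igfbp6, 8.0 against 25.5), none was higher, and Igf1r, the receptor gene, was 283.2 against 329.3. Without posterior cells 2 of the 8 were lower, since Igfbp5 had a log2 fold of -0.94. Of the 13 measured imprinted growth genes Peg10 was higher (log2 fold 0.99 in the Sftpc runs alone) and Igf2 lower, and Meg3 was 241.7 against 122.6 CPM. Without posterior cells 3 were higher, Peg10, Plagl1 and Meg3, with log2 folds of 1.46, 1.07 and 1.09.

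Few genes of the transforming growth factor beta, Wnt and Hedgehog lists passed 2-fold. Of 23 BMP and TGF-beta genes 3 were lower and none higher against other Pdgfra cells. The latent TGF-beta binding protein gene Ltbp1 was 240 against 607 CPM, with 71 of 88 members under the median of the other Pdgfra cells. Ltbp2, a microfibril gene of the same family, was 705 against 1637, and Fst, the gene of the activin antagonist follistatin, 134.2 against 341.9. Of the receptor genes, Tgfbr2 was 608 against 921 CPM and Bmpr2 1309 in both populations. Of 14 Wnt genes, the antagonist genes Wif1 and Sfrp4 were the 2 that were lower: Wif1 was 67.3 against 276.2 CPM and Sfrp4 1.67 against 25.9. Wif1 was also low in decorin-low high-actin cells, at 80.8 CPM in the Sftpc runs, against 50.1 in members. In the runs poor in Sftpc, with 5 such cells, it was 11.4 CPM against 110.3 in members. Of 11 Hedgehog genes only Hhip, a decoy receptor that is also a pathway target, passed 2-fold (121.8 against 248.4 CPM; log2 fold -0.89 without posterior cells, short of 2-fold). The receptor and target gene Ptch1 was 1229 against 1388 CPM, and the target transcription factor gene Gli1 114.6 against 115.9. Against Rgs5 cells 4 of the 11 were higher, among them Ptch1 (2.78-fold) and Gli1 (3.24-fold), and 3 without posterior cells. Tnfsf18, a TNF family ligand gene, was 8.03-fold lower (12.4 against 106.97 CPM) and Tnfrsf11b, the gene of the decoy receptor osteoprotegerin, 7.23-fold lower (11.6 against 89.8).

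Of the matrix genes a minority of each list passed 2-fold against other Pdgfra cells. The median log2 fold was -0.21 for the 18 collagen chains, -0.038 for the 13 elastic fibre genes and -0.12 for the 15 crosslinking genes, and differences between lists were not tested. Eln, the elastin gene, ranged from 0 to 3174 CPM in members with a median of 128.6, against a median of 562 in other Pdgfra cells, and 65 of 88 members lay under that median. Pooled, it was 374.9 CPM (362.4 to 387.8) against 1247, 3.32-fold lower, and near the 328.1 of Rgs5 cells. Eln was also low in decorin-low high-actin cells. In the Sftpc runs it was 487.1 CPM there and 437.9 in members, against 1539 and 1453 in decorin-high cells with low and high actin. In the runs poor in Sftpc, with 5 decorin-low high-actin cells, it was 470.6 CPM there and 217.2 in members. Of 13 elastic fibre and microfibril genes Eln and Fbln2 (14.3 against 37.9) passed 2-fold. The microfibril gene Mfap5 was 367.5 against 687 and Fbn1, the fibrillin 1 gene, 1726 against 2143. Of 15 crosslinking and modification genes the prolyl hydroxylase gene P4ha3 (140 against 373.1, 78 of 88 members under the median of other Pdgfra cells) and Lox, the lysyl oxidase gene (110 against 248.04), were lower. Of the collagen chains Col8a1 was lower. Col6a5 was higher, but without posterior cells its log2 fold went from 1.503 to -1.37. Without those cells 3 chains were lower, Col8a1, Col6a5 and Col12a1 (log2 fold -1.04), and none was higher. The fibrillar chains Col1a1 (2177 against 3213), Col1a2 (2424 against 3512) and Col3a1 (1774 against 2500) differed by under 2-fold, and all were above Rgs5 cells. Vcan, the gene of the large proteoglycan versican, was 1727 against 1386 in other Pdgfra cells and 432.7 in Rgs5 cells. Of 18 protease and inhibitor genes Mmp3 (13.3 against 37.1), Adamts5 (6.34 against 29.95) and Mmp23 (14.8 against 30.7) were lower and none was higher. Mmp23 passed 2-fold in 6 of 18 alternative settings, with log2 folds from -1.69 to -0.61. Mmp9, a gelatinase gene outside that list, was 201.5 CPM (192.4 to 211.03) against 33.1 and 37.2 in Rgs5 cells. It reached 100 CPM in 17 members (19.3%), 9 other Pdgfra cells (5.33%) and 9 Rgs5 cells (4.43%), and its median was 0 in each population.

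**Figure D4:**
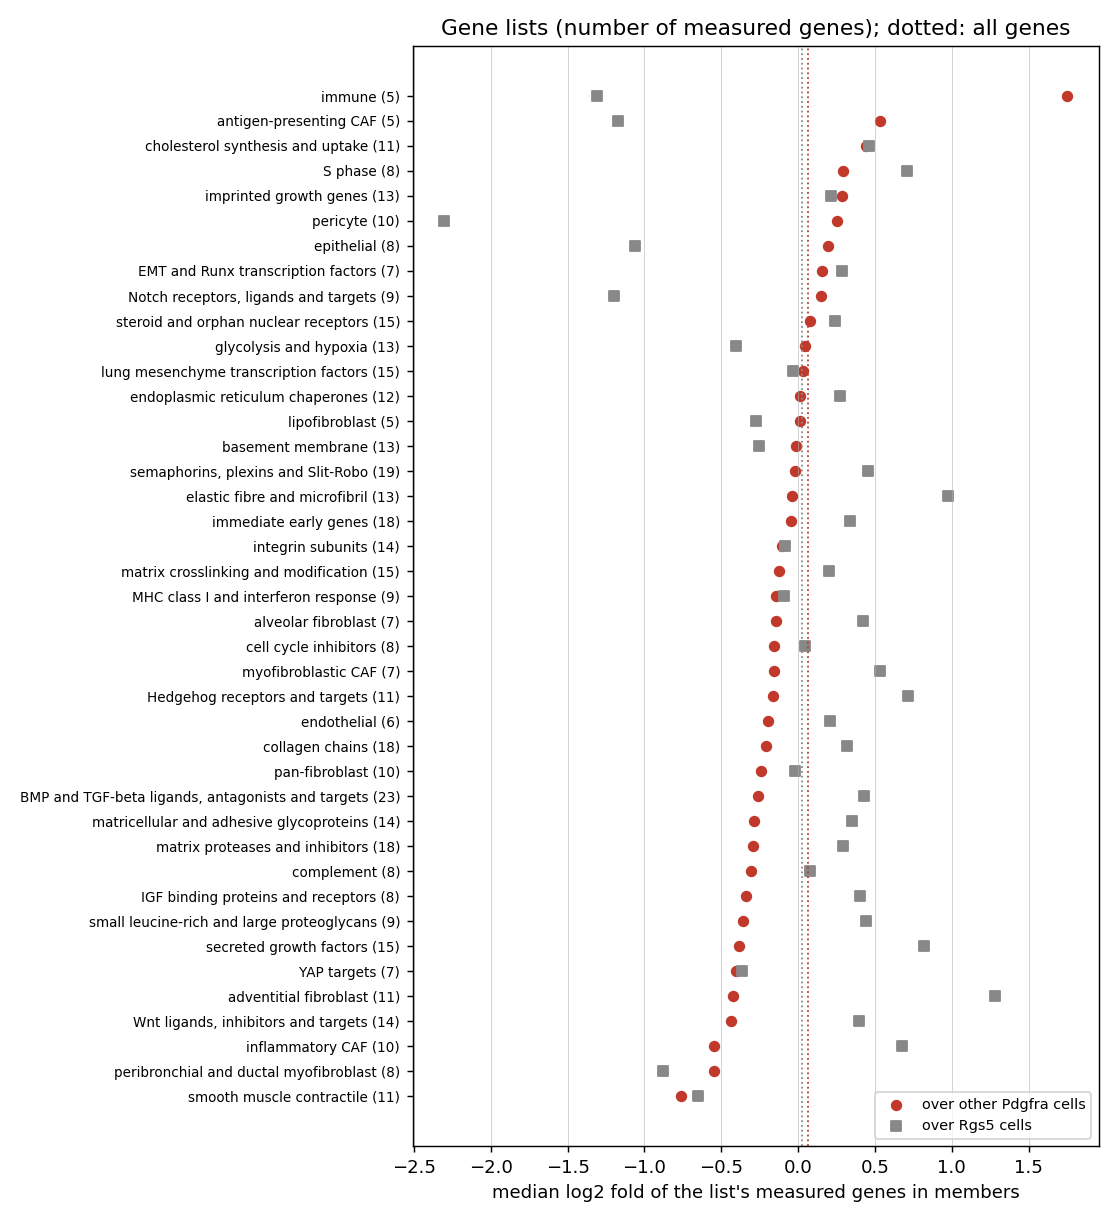
Median log2 fold of each gene list with at least 5 measured genes (number in brackets) in members over other Pdgfra cells (red circles) and over Rgs5 cells (grey squares); dotted lines are the medians of all genes. Against other Pdgfra cells the contractile list lies furthest left. The peribronchial and ductal myofibroblast, inflammatory CAF, Wnt, adventitial, YAP target and growth factor lists follow it in that order. The pericyte list lies at -2.30 against Rgs5 cells, from which members were split on Rgs5, but at 0.25 against the other Pdgfra cells.

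Contractile and pericyte genes separated the members in different comparisons. The contractile list is linked to Acta2, on which members were chosen low, so its direction is part of the choice. Of its 11 measured genes 4 were lower than in other Pdgfra cells and none higher: Tagln (115.4 against 397.5 CPM), Myh11, the smooth muscle myosin gene (17.9 against 86.7), Myl9 (34.5 against 170) and Lmod1 (2.67 against 13.6). Tpm1, a tropomyosin gene, was 1036 against 1250 and Mylk, the myosin light chain kinase gene, 1448 against 1520. The pericyte list is likewise linked to Rgs5, on which members and Rgs5 cells were split. Its direction against Rgs5 cells is therefore part of the choice. Of 10 pericyte genes, none passed 2-fold against other Pdgfra cells and 9 were lower than in Rgs5 cells. Notch3, the pericyte Notch receptor gene, had a median of 100.8 CPM in members and 1081 in Rgs5 cells, and 86 of 88 members lay under the latter. Abcc9, a potassium channel subunit gene, was 269.5 against 1300 CPM, and Cspg4, the gene of the proteoglycan NG2, 68.7 against 551. Rgs4, a relative of the selecting gene Rgs5, was 16.2-fold lower (69 against 1136 CPM), with no member above the median of Rgs5 cells. Gja4, a vascular connexin gene, was 2.0 against 81 CPM. The reverse held for Adh1, an alcohol dehydrogenase gene of retinoid metabolism (382.3 against 59.6 CPM, 72 of 88 members above the median of Rgs5 cells), for Nrcam, a cell adhesion gene (125.3 against 18.5), and for the nuclear receptor gene Nr4a2 (484 against 105.8).

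The posterior members differed from the other members more in some lung mesenchyme transcription factor genes than in others. Tbx4, a lung mesenchyme transcription factor gene, was 550 CPM in the 79 other members and 27 in the 9 posterior ones, and Tbx5 649 and 39.9. Foxf1 was counted in each of the 9, at 109.2 CPM pooled against 197.6, with medians of 87.5 and 163.3. Tcf21 was 36.4 CPM pooled against 25.7, but its medians were 0 and 9.89. Hand2 and Hoxa10 chose the posterior cells, so their levels describe that choice and are no finding. In the posterior members Hand2 ranged from 208.6 to 980 CPM with a median of 774, against 0.614 pooled over the other 79. Hoxa10 was 521 CPM, Hoxa11 233.6 and Hoxd11 539. The progesterone receptor gene Pgr was 766 CPM and the estrogen receptor gene Esr1 535, against 6.02 and 7.86 in the other members. Dio2, a thyroid hormone deiodinase gene, was 2005 against 5.77. Moxd1 (7.04 CPM) and Plagl1 (5.87) were near absent from them. Without these cells the log2 folds against other Pdgfra cells were 1.33 for Moxd1, 1.07 for Plagl1, -1.43 for Igf1 and -1.64 for Eln, while that of the connexin gene Gja1 went from 1.19 to -0.01. Of the genes higher in members than in other Pdgfra cells 69.4% stayed higher without them, and of the lower genes 88% stayed lower.

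**Figure D5:**
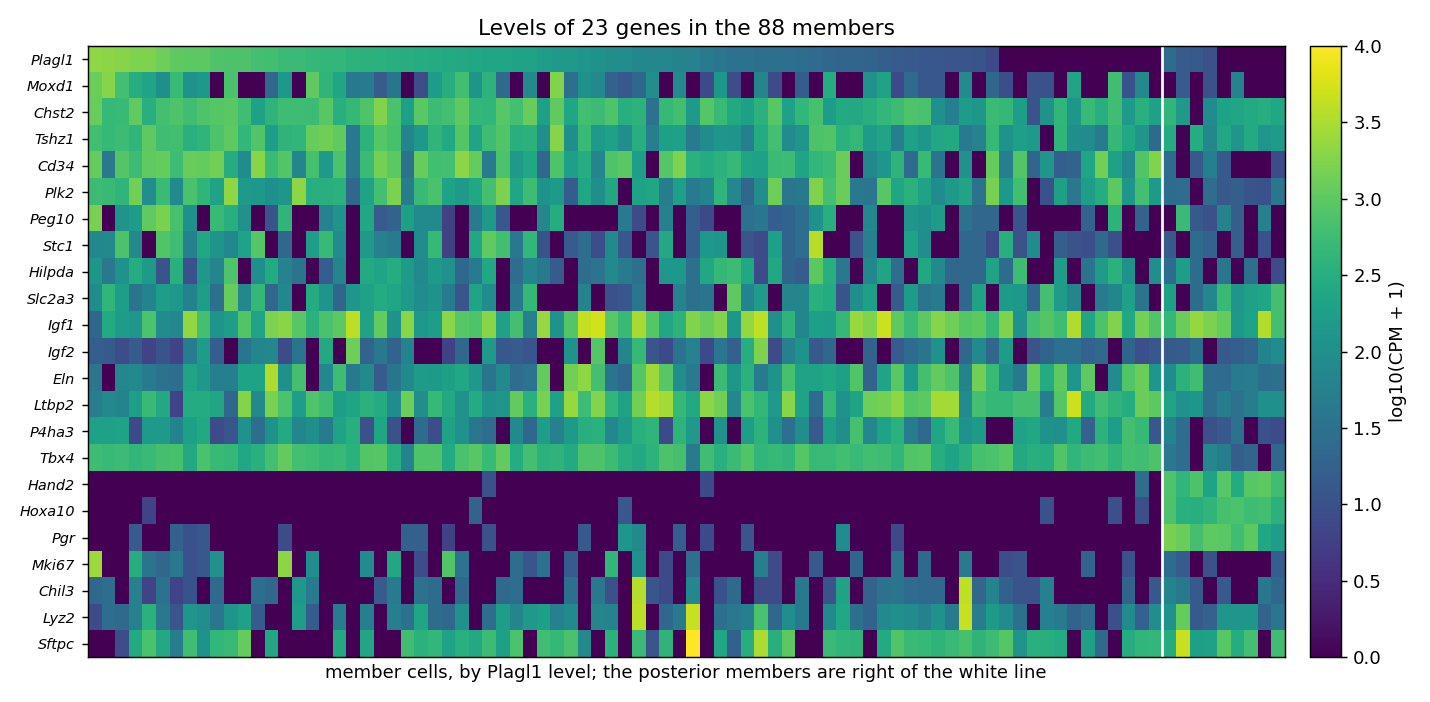
Level of 23 genes, as log10(CPM + 1), in each of the 88 members, ordered by Plagl1; the posterior members are to the right of the white line. High Moxd1 lies mostly at high Plagl1, Tbx4 is present in nearly all members left of the line and low right of it, and Chil3 and Lyz2 are very high in single cells.

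Signal of other cell types was present in the members, epithelial signal in most of them. Of the 5 measured immune genes 3 were higher than in other Pdgfra cells and 1, Csf1r, was lower (log2 fold -1.33). However, the median summed level of the 10 listed genes was 68.2 CPM per member against 74.5, and 3 members held 24%, 20.04% and 18.3% of the members' sum. The defining genes Ptprc (11.7 CPM) and Csf1r (1.78) were at 0 in most members. Of the 6 measured endothelial genes Vwf was higher than in other Pdgfra cells (38.5 against 11.1 CPM) and Kdr lower (4.67 against 16.3), while Pecam1 was 10.6 against 16.6, and each of these had a median of 0 in members. Without the cells at or above 1000 CPM of Chil3, 2 of them members, the log2 fold of Vwf was -0.13. Against decorin-high low-actin cells 4 of the 6 were higher and 0 lower, but against high-actin cells 1 was higher and 3 were lower. Of all measured genes 2.21% were higher and 3.11% lower in the first comparison, and 2.25% and 1.55% in the second. The endothelial sum of 8 listed genes had a median of 19.7 CPM per member, 23.1 in other Pdgfra cells and 15.1 in Rgs5 cells, with a highest value of 4926 in 1 member. The macrophage gene Chil3 was at or above 1000 CPM in 2 members, 0 other Pdgfra cells and 6 Rgs5 cells. The epithelial sum of 12 genes had a median of 659 CPM in members, 635 in other Pdgfra cells and 803 in Rgs5 cells, and Sftpc was at 30 CPM or more in 71.6% of members, 77.5% and 72.4%. Their part in the results above was not tested.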

How the data were processed

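The authors deposited molecular barcode counts, whole numbers for 48440 genes in 460 single cells. Per the labels the libraries were made by sonication and ligation, and per the submitters' processing notes STAR, HTSeq and mm10 were used, with no versions given. How reads became barcode counts is not given in the sources used here. All 460 cells passed a minimum of 1000 counts. No doublet caller was run and doublets were kept. The members and gene lists were chosen with earlier results of these data known. The level of a population is its summed count per 1000000 counts of its cells (CPM), and 1 CPM was added before folds. Genes of at least 10 CPM over all cells were measured, and the 4 selecting genes were left out. For 119 repeated symbols the gene with most counts kept the symbol. Shares of cells with a count of a gene used counts thinned to the 10th percentile of totals, 56586 (46 cells left out), unless called unthinned. Shares of cells at or above a CPM limit used all cells without thinning. The G2 and mitosis genes were counted in thinned counts, and in unthinned counts for the 46 shallower cells. Numbers of higher and lower genes are given as shares of the 9827 measured genes. Intervals are exact Poisson for counts and exact Clopper-Pearson for shares, at 95%. A column was poor in Sftpc where over 50% of its 20 nearest columns had under 30 CPM. No 2 columns were identical. The named genes are the given markers, the 12 genes with the largest folds each way against other Pdgfra cells and against Rgs5 cells and the 15 each way against each population, all with a median that differed 1.5-fold, the 4 most abundant and all called genes of 48 lists, the 10 most abundant genes carried by few members and the 5 closest correlates of each marker. Of these the text gives a selection made after their values were seen, and Pecam1 and others only to illustrate a list. The fold step was tested on simulated counts. Python 3.11.15, numpy 2.4.6, pandas 2.3.3, scipy 1.17.1 and matplotlib 3.10.9 were used, with GENCODE vM21 for gene lengths.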

Additional observations from a re-analysis of the deposited data

How the results depend on the processing

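All cells form 1 sample, so no test could be lost or gained, and the limit on every value is counting error plus unmeasured spread between animals. No paired analysis was possible because there is 1 group. Of the counts of higher and lower genes and of members, recomputed under 18 alternatives, 76.2% stayed within 1.5 times and 44 did not. The following are shares of the genes measured under each setting. With genes of at least 30 CPM (5992 genes) the shares higher and lower were 0.584% and 1.40% against other Pdgfra cells, 3.12% and 3.15% against Rgs5 cells, 1.202% and 2.20% against decorin-high low-actin cells, 0.818% and 1.23% against high-actin cells, and 0.317% and 0.534% against each population. With 1 CPM (16964 genes) they were 3.12% and 3.29%, 5.06% and 6.05%, 4.21% and 4.74%, 5.38% and 2.59%, and 2.15% and 1.998%. In runs poor in Sftpc alone, with 27 members, they were 5.71% and 5.80%, 5.77% and 6.66%, 9.34% and 7.47%, 9.45% and 5.61%, and 3.73% and 3.42%. With 5 CPM added, 1.33% were lower than in other Pdgfra cells, 1.27% higher and 0.957% lower than in high-actin cells, and 0.529% lower than in each. An Acta2 limit of 500 CPM gave 1.41% higher and 2.38% lower against high-actin cells and 1.62% lower than each, and one of 2000 gave 6.01% and 2.58% against high-actin cells. A Dcn limit of 250 CPM gave 1.16% higher and 1.60% lower than each, and one of 1000 gave 1.33% lower than other Pdgfra cells and 0.560% lower than each. A 2-fold gap between Pdgfra and Rgs5 gave 1.18% higher than each. The causes were not tested beyond the number of genes and cells.

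Of 1818 recomputed gene folds 20 changed sign. Without posterior cells the log2 folds against other Pdgfra cells were -0.14 for Hand2, -0.049 for Hoxd11 and -1.37 for Col6a5, and those against Rgs5 cells -0.031 for Hoxa10, -0.15 for Esr1 and -0.54 for Col6a5. Hand2 and Hoxa10 chose the posterior cells, so their changes without those cells are part of the choice. In runs poor in Sftpc, Col6a5 was -0.97 against other Pdgfra cells, and against Rgs5 cells Hoxa10 was -3.40, Esr1 -1.32, Pgr -0.44, Hand2 -2.58 and Col6a5 -0.070. With an Acta2 limit of 500 CPM, Ptprc was -2.09, Vwf -1.41 and Lyz2 -0.10 against other Pdgfra cells and Wif1 -0.029 against Rgs5 cells. With a Dcn limit of 1000 CPM Csf1r was 0.28 against other Pdgfra cells, without the deepest 5% of cells Sfrp4 was 0.062 against Rgs5 cells, and without the cells richest in other lineages Ptprc was -0.026 against other Pdgfra cells. Without cells rich in Chil3, a setting chosen after seeing the data, Vwf was -0.13 against other Pdgfra cells.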

Other observations

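Dividing cells were a small share of the members. At least 5 genes of the G2 and mitosis list were counted in 5 members (5.68%, exact interval 1.87 to 12.8), 7 other Pdgfra cells (4.14%) and 5 Rgs5 cells (2.46%). Mki67, a proliferation marker gene, was at 100 CPM or more in 8 members (9.09%), 9 other Pdgfra cells (5.33%) and 8 Rgs5 cells (3.94%). Of the 5 dividing members 4 held at least 100 CPM of Plagl1 and 4 of Moxd1. Mki67 of members was 273.7 CPM in the runs poor in Sftpc and 51.6 in the Sftpc runs, against 10.5 and 81.98 in other Pdgfra cells. In the same 2 kinds of runs members held 303.3 and 99.98 CPM of Moxd1 and 516.6 and 237.9 of Plagl1. A link between division and the markers was not tested.

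Of the 11 measured cholesterol synthesis and uptake genes none passed 2-fold against other Pdgfra cells, and their median log2 fold was 0.44 (0.33 without posterior cells) beside 0.07 for all genes. Hmgcs1, an early enzyme gene of the pathway, was 88.7 against 62.9 CPM. The 18 measured immediate early genes, which respond to stress during cell isolation as well as to growth signals, gave a median of -0.05, with none past 2-fold; Fos was 2000 against 2089 CPM.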
